A study of Homo sapiens with 21 samples.

Results

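REST and 50 neuronal genes that are commonly described as targets of REST and its CoREST corepressor were followed in OCI-AML5, a human acute myeloid leukemia cell line, during exposure to UM171, a small molecule used to expand human hematopoietic stem cells. The 51 members were chosen by name, with earlier results of these data known but with no threshold on their values, from genes for synaptic vesicles, cytoskeleton, secretory granules, RNA-binding proteins, channels and adhesion, and all 51 were found among 58174 gene identifiers. RNA was sequenced from 21 libraries in 7 groups of 3. Control cells were kept in DMSO, the vehicle, for 72 h according to the labels, or in 500 nM UM171 for 6, 24, 48 or 72 h, and cells carrying a guide against EPCR (sgEPCR), the protein encoded by PROCR, were kept in DMSO for 24 h or in 500 nM UM171 for 24 h. The paper's legend gives a lower dose, and its table places the DMSO libraries at the start of the time course. The labels call the sgEPCR cells a clone that is null or knocked down for EPCR, the paper speaks of 3 independent clones and lists 3 guides, and no source used here ties a library to a clone or guide. The spread between sgEPCR libraries may thus be that between clones. The paper compares sgEPCR cells with cells carrying a guide against AAVS1, but the source labels name no guide for the control cells. If these carry none, loss of EPCR and the editing procedure cannot be told apart between the genotypes. For the control groups the labels do not say that the 3 libraries came from separate cultures, so their p-values measure the spread between these libraries, which may be technical.

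REST is a zinc finger repressor that binds a long DNA element, RE1, near neuronal genes and keeps them silent outside the nervous system. It carries a CoREST arm, built from RCOR proteins, the histone demethylase LSD1 (encoded by KDM1A) and histone deacetylases, and a separate SIN3 arm. Neurons lose REST as they mature, and genes for vesicle release, neurofilaments, granins and channels are then expressed. In blood cells most of these genes are silent. In a bulk sample, expression by fewer cells and less RNA per cell cannot be told apart.

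The element was looked for in the reference genome to show which members carry it close to their start. RefSeq promoters of GRCh38.p14, 250 bases before to 50 bases after a start, were matched by symbol for 36 of the 51 members and 27305 genes in all. CHGB, CPLX1, ELAVL3, GRIN1, MAPK8IP1, NEFH, NEFL, NEFM, NRXN2, SCG2, SCN3A, SNAP25, STMN2, STMN4 and SYT7 were not matched. The RE1 consensus of 17 letters, searched on either strand, lay in the 300 bases of 2 members (5.56% of 36, SYN1 and GRIA2) and of 21 genes in all (0.0769%). Within 1000 bases of a start, a window chosen after the data were seen, it lay near 10 members (27.8%) and near 140 genes in all (0.513%). Of the shorter motifs that overlap the ends of the element, AGCACC was in the promoters of 13 members (36.1%, against 18.8% of all genes) and GGACAG in those of 16 (44.4%, against 24% of all genes). As the members were listed as REST targets, these shares describe the list. A match is a description and not a binding site, and no match says only that these letters are not in the window.

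Shown here are the elements near 4 members whose RNA changed in the time course (BEX2, CELF6, GLRA3 and SYN1). Those near 3 members that stayed at or under 3 counts in every library (SYT4, CHGA and GRIA2) are shown as well. The search pattern fixed or limited most of the 17 letters, so likeness between the elements follows from the search. Each is written on the strand of the element, with the 17 letters in capitals and 6 reference bases on either side:
BEX2: gaactgATCAGCACCGAGGACAGaggccc
CELF6: ctgggtTTCAGCACCGCGGACAGcggcgt
GLRA3: ggaagcTTCAGCACCTTAGACAGctcccc
SYN1: gccagcTTCAGCACCGCGGACAGtgcctt
SYT4: tttcccTTCAGCACCTCGGACAGaacacg
CHGA: cgagttTTCAGCACCGCGGACAGcgcctc
GRIA2: cggcctTTCAGCACCGAGGACAGcgcctc
In GRCh38 the capitals of BEX2 are chrX:103310024-103310040 (plus strand, in an intron 958 bases after the start), those of CELF6 chr15:72319801-72319817 (minus strand, coding exon, 348 bases after), those of GLRA3 chr4:174828936-174828952 (plus strand, untranslated exon, 303 bases after) and those of SYN1 chrX:47620074-47620090 (minus strand, 225 bases before the start and outside the gene). Those of SYT4 are chr18:43277297-43277313 (minus strand, untranslated exon), of CHGA chr14:92923523-92923539 (plus strand, intron) and of GRIA2 chr4:157220392-157220408 (minus strand, intron). CELF6, SYN1 and CHGA share all 17 letters, although CELF6 fell, SYN1 rose and CHGA stayed near 0. The other members with an element were L1CAM, SCN2A and SYT5.

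Totals per library lay between 24286668 and 51540166 counts. Mitochondrial genes took 35.9% of sgEPCR DMSO replicate 1 and 32.2% of sgEPCR UM171 replicate 2, against 7.73 to 13.5% of the other 19 libraries. Fitted values of several members, though not all, are given with and without these 2 libraries. PROCR itself was at 3.37, 4.30 and 3.38 TPM, a level scaled to transcript length and library total, in DMSO and at 48.5, 48.48 and 48.5 TPM after 24 h of UM171. In sgEPCR cells it was at 2.30, 4.53 and 3.93 TPM in DMSO and at 8.94, 4.23 and 8.41 TPM in UM171. Thus it was low in the UM171 libraries labelled sgEPCR, overlapped the control level in DMSO, and an edit need not remove the transcript. Of the myeloid markers, SPI1 was at 417 ± 12.1 TPM and CD33 at 178 ± 0.854 TPM in DMSO, while KIT and CD14 were under 0.1 TPM.

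Many of the neuronal genes were silent or close to it. No read was assigned to 9 members in any of the 21 libraries: SNAP25 and CPLX2 (fusion and clamping of vesicles), the vesicle sensor SYT4, the growth cone protein STMN2, the neurofilament genes NEFL and NEFM and their partner INA, the RNA-binding ELAVL2, and BEX1. A further 9 members never exceeded 3 counts, which brings the number at or under this floor to 18. Another 13 exceeded 3 counts in at least 1 library but were too low to be tested, and 20 were tested in at least 1 fit. Counts above 3 were found in all 21 libraries for 11 members. At 0 counts, a depth of this size allows up to 3 counts per library, and such floors cover counting error only.

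To compare libraries of unequal depth, a common limit was set at the level of 3 counts in the shallowest library (0.124 CPM, counts scaled to a library's total). Of the 50 members without REST, between 14 and 17 exceeded it in the DMSO libraries, 17 to 20 at 6 h, 19 in each library at 24 h, 19 to 21 at 48 h and 19 to 22 at 72 h. The groups in DMSO and at 6 h met at 17 members, and every library at 24, 48 and 72 h was above all DMSO libraries. In sgEPCR cells 13 members exceeded it in each DMSO library and 18 to 21 in UM171. Over all gene identifiers the share above the limit was 28.3 to 28.7% in DMSO, 30.4 to 30.9% at 6 h, 28.4 to 28.9% at 24 h, 28.9 to 29.6% at 48 h and 29.6 to 30.2% at 72 h, and in sgEPCR cells 25.9 to 27.3% in DMSO and 28.5 to 29.6% in UM171.

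The summed level of the 50 genes was 27.8 to 31.2 TPM in DMSO, 53.3 to 57.7 TPM at 6 h, 51.4 to 52.9 TPM at 24 h, 54.9 to 64.2 TPM at 48 h and 58.8 to 65.1 TPM at 72 h. Much of it came from SYT11 and RAB3A. Without this pair the sum was 10.1 to 12.2 TPM in DMSO, 14.7 to 16.3 TPM at 6 h and 24.5 to 26.7 TPM at 72 h, still without overlap with DMSO. In sgEPCR cells the sum was 12.1 to 22.9 TPM in DMSO and 45.3 to 104 TPM in UM171, and the lowest library of each group was the one rich in mitochondrial counts.

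**Figure D1:**
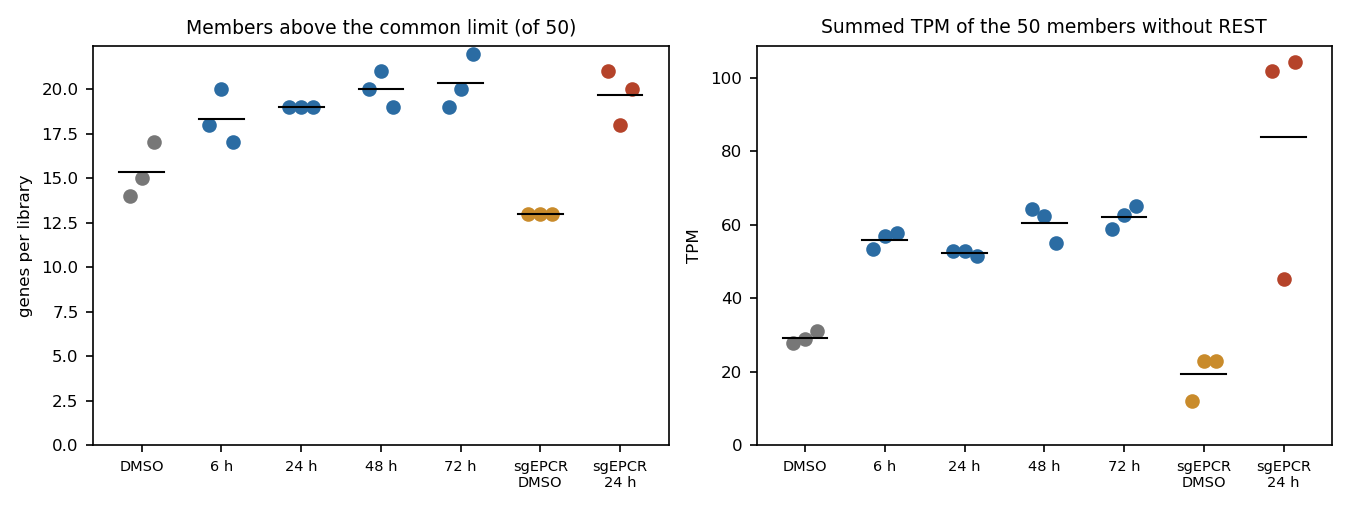
Number of the 50 neuronal genes above the common limit (left, genes per library) and their summed level (right, TPM) in each library of the 7 groups, with a point per library and a line at the mean of 3. Libraries in UM171 sit above those in DMSO in control and in sgEPCR cells, except that 17 genes were counted in the highest DMSO and the lowest 6 h library.

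REST was expressed throughout and changed little in control cells. It was at 17.7, 17.9 and 19.2 TPM in DMSO, and its group means in UM171 lay between 17.4 ± 0.667 TPM (SD, n = 3) at 6 h and 18.9 ± 1.83 TPM at 48 h. These ranges overlapped. Its log2 fold change was -0.22 at 6 h (SE 0.039, edgeR adjusted p = 1.0e-04), 0.02 at 24 h, -0.01 at 48 h and -0.15 at 72 h, all far under 2-fold. In sgEPCR cells REST was at 12.8, 19.8 and 20.5 TPM in DMSO and at 26.3, 17.5 and 26.3 TPM in UM171. The lowest library of each group was the one rich in mitochondrial counts, and the other UM171 libraries were above every other library of the series. Against control cells its log2 fold change was 0.39 in DMSO (SE 0.12, edgeR adjusted p = 0.032). In UM171 at 24 h it was 0.55 (SE 0.12, edgeR adjusted p = 0.0044). Both were under 2-fold.

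A gene was called where its Benjamini-Hochberg adjusted p in edgeR's quasi-likelihood test was under 0.0001 and its change over 2-fold. By the labels, only the 72 h group was matched in time to its DMSO libraries. At 6, 24 and 48 h, UM171 and time in culture cannot be told apart in the contrasts against DMSO. Of the 51 members, 19 were tested in the time course. At 6 h 4 were called higher (NRXN2, SCN3A, SYP and SYT11) and 0 lower, where the background over 16575 tested genes was 6.78% higher and 0.247% lower. At 24 h 3 were higher (CHGB, SCN3A and SYT11) and 2 lower (BSN and CELF6), against a background of 9.03% and 4.7%. At 48 h 9 were higher and 1 was lower, against 11.7% and 4.67%, the widest response of the list. At 72 h 6 were higher and 1 was lower, against 15% and 5.8%. The median log2 fold change over the 19 was 0.33, 0.63, 0.46 and 0.48 in order of time, while the median of all tested genes lay between -0.01 and 0.02. A member that passed the filter only through a group where it was high had to differ, so these counts describe the tested members and not the list. In all, 12 members were called at 1 or more times, and only SCN3A and SYT11 at all 4.

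**Figure D2:**
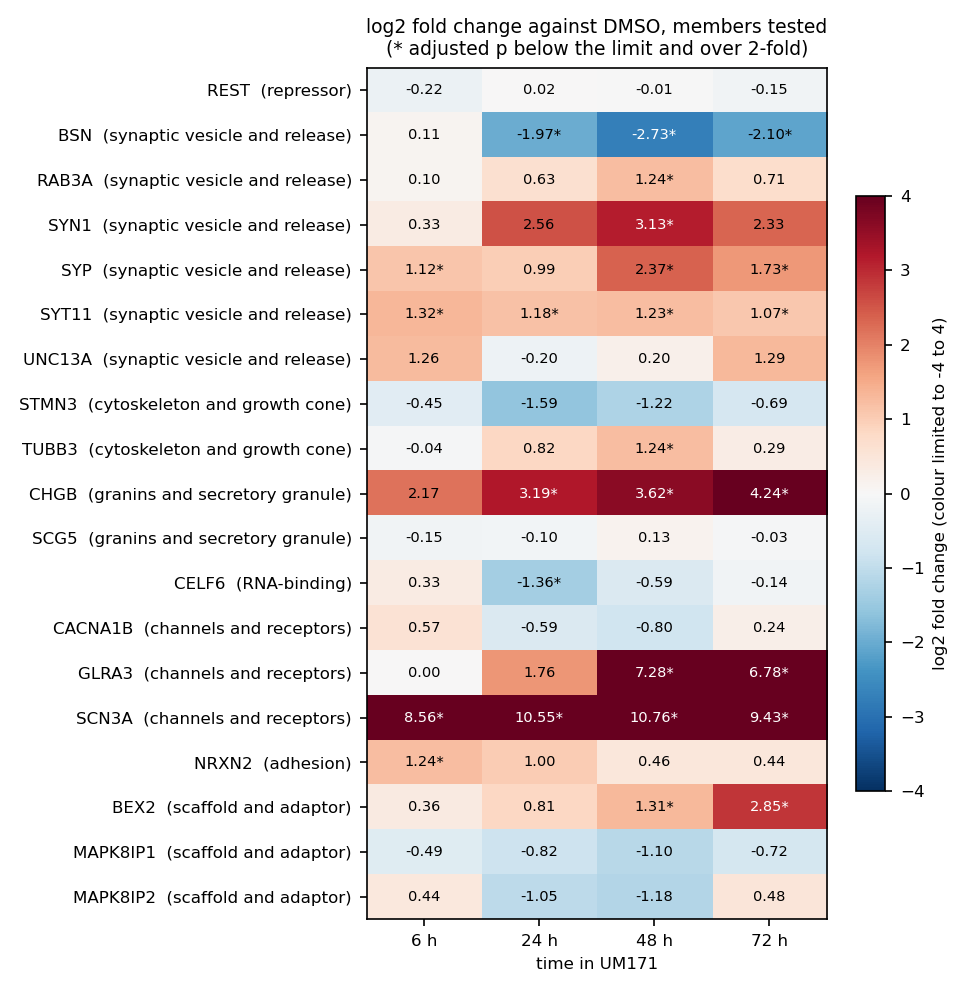
log2 fold change against DMSO of the 19 tested members (rows, by role) at 6, 24, 48 and 72 h in UM171 (columns), with asterisks for calls and colours limited to -4 to 4. SCN3A and SYT11 are marked at every time and BSN turns from 0.11 to -2.73. The numbers for SCN3A and GLRA3, which had 0 counts in DMSO, depend on the prior count of the fit and bound nothing.

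Among the 15 genes of synaptic vesicles and release, 6 were tested in the time course, and 4 of these rose at 1 or more times while BSN fell. SYT11, a synaptotagmin of vesicle and membrane traffic, was at 11.9, 11.3 and 12.3 TPM in DMSO, at 31.1, 34.3 and 34.8 TPM at 6 h, at 28.1, 28.3 and 26.5 TPM at 24 h, at 29.0, 29.5 and 23.4 TPM at 48 h and at 23.8, 26.1 and 28.6 TPM at 72 h. Every UM171 library was above every DMSO library, and the highest level was reached at the first time. The log2 fold change was 1.32 at 6 h (SE 0.053, edgeR adjusted p = 6.0e-12) and 1.07 at 72 h (SE 0.053, edgeR adjusted p = 6.8e-12).

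SYP encodes synaptophysin, an abundant membrane protein of synaptic vesicles. Its level was 0.42, 0.68 and 0.54 TPM in DMSO, 1.42, 1.33 and 1.10 TPM at 6 h, 1.11, 1.10 and 1.37 TPM at 24 h, 3.27, 3.10 and 1.92 TPM at 48 h and 1.69, 1.89 and 1.90 TPM at 72 h. No UM171 library overlapped DMSO, and the libraries at 48 h were the highest. SYP was called at 6 h (log2 fold change 1.12), 48 h (2.37, SE 0.17, edgeR adjusted p = 1.8e-09) and 72 h (1.73). The call at 6 h (edgeR adjusted p = 7.2e-05) was lost in 12 of the 15 fits that left out a library, with adjusted p up to 0.00086, and SYP was called at 24 h without DMSO replicate 2, where its log2 fold change was 1.18 in place of 0.99.

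SYN1, which tethers synaptic vesicles to the cytoskeleton, had 2, 3 and 2 counts in DMSO and 6, 2 and 1 at 6 h. It then had 19, 22 and 9 counts at 24 h, 23, 15 and 24 at 48 h, and 17, 12 and 9 at 72 h. All libraries from 24 h on were above DMSO, while those at 6 h overlapped it. The ratio of counts at 48 h to DMSO, scaled for depth, was 8.94 (exact 95% interval of counting error 4.09 to 23.2). It was called at 48 h (log2 fold change 3.13, SE 0.49, edgeR adjusted p = 2.2e-05), but not without any of the 3 DMSO libraries, where the value ranged from 2.98 to 3.37, and at 24 and 72 h its adjusted p of 0.00028 and 0.00075 missed the limit.

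RAB3A, the small GTPase of vesicle docking, was at 5.71, 5.85 and 6.6 TPM in DMSO and at 7.56, 6.21 and 6.88 TPM at 6 h. It was at 8.78, 9.72 and 9.02 TPM at 24 h, 13.2, 11.4 and 14.6 TPM at 48 h and 10.5, 9.82 and 9.86 TPM at 72 h. The 6 h libraries overlapped DMSO and later ones did not. Only the change at 48 h was called, with a log2 fold change of 1.24 (SE 0.14, edgeR adjusted p = 5.4e-07).

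BSN encodes Bassoon, a scaffold of the presynaptic release site, and it moved the other way. It was at 0.66, 0.83 and 0.82 TPM in DMSO, 0.90, 0.89 and 1.00 TPM at 6 h, 0.32, 0.20 and 0.29 TPM at 24 h, 0.10, 0.10 and 0.14 TPM at 48 h and 0.15, 0.20 and 0.21 TPM at 72 h. Libraries at 24, 48 and 72 h were all below those in DMSO. Its log2 fold change was -1.97 at 24 h, -2.73 at 48 h (SE 0.15, edgeR adjusted p = 5.3e-11) and -2.10 at 72 h. UNC13A, which primes vesicles for fusion, ranged from 1 to 21 counts over the 21 libraries and was called at no time.

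SYT1, the calcium sensor of fast release, was too low for the time course fit, with 0, 0 and 1 counts in DMSO, 6, 8 and 6 at 24 h and 3, 8 and 8 at 72 h. The ratio at 24 h to DMSO was 17.7, with an interval of 2.83 to 733. SYT5, SYT7, CPLX1, RAB3C and STX1A each had at most 7 counts in any library.

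Of the 9 cytoskeletal and growth cone genes, 7 never exceeded 3 counts, among them all 3 neurofilament genes, GAP43, STMN2 and STMN4. TUBB3, the neuronal class of beta tubulin, was at 2.35, 2.77 and 3.07 TPM in DMSO, 2.97, 3.01 and 2.82 TPM at 6 h, 4.64, 4.33 and 4.92 TPM at 24 h, 6.97, 5.73 and 4.87 TPM at 48 h and 3.21, 3.88 and 3.14 TPM at 72 h. Its libraries at 24, 48 and 72 h were above DMSO, and the mean was highest at 48 h. The call at 48 h had a log2 fold change of 1.24 (SE 0.11, edgeR adjusted p = 2.0e-08), and the value was 0.82 at 24 h and 0.29 at 72 h. TUBB3 shares exons with a readthrough transcript of its neighbour MC1R, and how reads are split between such genes is uncertain. The stathmin STMN3 had 26, 28 and 31 counts in DMSO and 17, 8 and 7 at 24 h, which was not called (log2 fold change -1.59, edgeR adjusted p = 0.00047).

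Of the 6 granins and secretory granule genes, CHGB alone was called. It encodes chromogranin B, a core protein of dense secretory granules. Its counts were 2, 1 and 6 in DMSO, 21, 11 and 10 at 6 h, 42, 37 and 19 at 24 h, 51, 32 and 31 at 48 h and 52, 55 and 77 at 72 h. All UM171 libraries were above DMSO, and the mean level rose from 0.0533 ± 0.0321 TPM to 0.26 ± 0.052, 0.49 ± 0.0721, 0.63 ± 0.0265 and 1.03 ± 0.146 TPM (SD, n = 3). The ratio to DMSO at 72 h was 20.7 (interval 10.6 to 45.9). Its log2 fold change was 3.19 at 24 h, 3.62 at 48 h and 4.24 at 72 h (SE 0.34, edgeR adjusted p = 3.6e-09), while the value of 2.17 at 6 h passed only without DMSO replicate 3, where it was 3.04. SCG5, a chaperone of granule proteases, had 23 to 50 counts in control libraries and log2 fold changes between -0.15 and 0.13. CHGA, the other classical granin, was at 0 in all but 1 library, where it had 1 count. SCG2 and SCG3 had at most 7 counts in any library. VGF, a neurotrophin-inducible granule protein, had 1, 1 and 2 counts in DMSO and 2, 4 and 8 at 72 h.

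CELF6 was the only tested gene of the 7 for RNA-binding proteins, and it regulates splicing and translation. Its level was 0.72, 0.82 and 0.93 TPM in DMSO, 1.02, 1.14 and 1.14 TPM at 6 h, 0.22, 0.38 and 0.34 TPM at 24 h, 0.47, 0.64 and 0.51 TPM at 48 h and 0.77, 0.86 and 0.72 TPM at 72 h. The libraries at 24 and 48 h were below DMSO and those at 72 h overlapped it. It was called at 24 h (log2 fold change -1.36, SE 0.20, edgeR adjusted p = 1.3e-05), but not without UM171 24 h replicate 1, where the value was -1.20. The other 6 included ELAVL2 at 0 counts throughout, ELAVL4, CELF3 and CELF4 at no more than 3, and ELAVL3 at no more than 3.05. CELF5 had 4, 1 and 3 counts in DMSO and 3, 9 and 9 at 72 h, a ratio of 2.65 (interval 1.13 to 6.92). In sgEPCR cells it had 0, 1 and 1 counts in DMSO and 9, 10 and 14 in UM171. That ratio was 16.1, with an interval of 4.12 to 139.

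Of the 6 genes for channels and receptors, SCN3A and GLRA3 were called against DMSO. SCN3A encodes a voltage-gated sodium channel subunit of the embryonic brain. It had 0 counts in all 3 DMSO libraries, about 50, 51 and 35 at 6 h, 228, 292 and 114 at 24 h, 280, 193 and 151 at 48 h and 83.6, 86.6 and 87.8 at 72 h. Counts were thus found in every UM171 library of control cells and in none of their DMSO libraries. Against a floor of 3 counts per library, SCN3A was at least 17.1-fold higher at 6 h, 60.7-fold at 24 h, 69.3-fold at 48 h and 29.0-fold at 72 h, and it was called at each time (edgeR adjusted p = 1.0e-09 at 6 h and 3.6e-13 at 48 h). Its level reached 1.55 ± 0.314 TPM at 24 h and 1.55 ± 0.123 TPM at 48 h (SD, n = 3), and its group mean was lower at 72 h, at 0.63 ± 0.0889 TPM. SCN2A, its neighbour on the opposite strand whose annotation overlaps that of SCN3A, had at most 5.09 counts in any library.

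GLRA3 encodes a subunit of the glycine receptor, an inhibitory chloride channel. It was at 0 counts in DMSO and at 6 h, had 0, 1 and 0 at 24 h, 29, 22 and 6 at 48 h and 11, 18 and 12 at 72 h. In counts the 6 libraries at 48 and 72 h were above all others, with 2, 2 and 2 counts in sgEPCR UM171. In TPM they were not, as sgEPCR UM171 replicate 3 (0.07) was above replicate 3 at 48 h (0.06) and at 72 h (0.05). Against the floor it was at least 6.05-fold higher at 48 h and 4.62-fold at 72 h. The calls (edgeR adjusted p = 1.9e-05 at 48 h and 5.9e-05 at 72 h) were lost without DMSO replicate 3 or UM171 48 h replicate 1 at 48 h, and in 9 of 15 such fits at 72 h, with adjusted p up to 0.00013 and 0.00033. CACNA1B, a subunit of the calcium channel of nerve terminals, ranged from 57 to 338 counts and was not called against DMSO at any time. The glutamate receptor genes GRIN1 and GRIA2 never exceeded 3 counts.

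Of the 3 adhesion genes, NRXN2, a presynaptic neurexin, was tested. It had 17, 12 and 16 counts in DMSO, 41, 36 and 30 at 6 h, 43, 46 and 17 at 24 h, 28, 19 and 15 at 48 h and 18, 21 and 25 at 72 h. In TPM the libraries at 6 h (0.74, 1.11 and 0.99) were above those in DMSO (0.59, 0.27 and 0.32), and at each later time the groups overlapped. The call at 6 h (log2 fold change 1.24, SE 0.21, edgeR adjusted p = 6.4e-05) was lost in 14 of 15 fits that left out a library, with adjusted p up to 0.00058. NRXN3 and the axonal adhesion gene L1CAM had at most 6 and 10.1 counts in any library.

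BEX2, a small adaptor protein gene of the brain-expressed X-linked family, rose late. Its level was 1.30, 1.73 and 1.98 TPM in DMSO, 1.93, 2.58 and 2.51 TPM at 6 h, 3.42, 2.43 and 2.75 TPM at 24 h, 4.28, 4.28 and 3.66 TPM at 48 h and 11.5, 12.8 and 12.1 TPM at 72 h. The libraries at 72 h were above all others, and those at 24 and 48 h were above DMSO. Its log2 fold change was 1.31 at 48 h (SE 0.15, edgeR adjusted p = 6.8e-07) and 2.85 at 72 h (SE 0.14, edgeR adjusted p = 5.9e-12). BEX1, a close relative of BEX2, was at 0 counts throughout, and reads the relatives share would be split between them. The JNK scaffold genes MAPK8IP1 and MAPK8IP2 were not called against DMSO at any time. Over all libraries they ranged from 1 to 13.4 and from 2 to 59 counts.

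**Figure D3:**
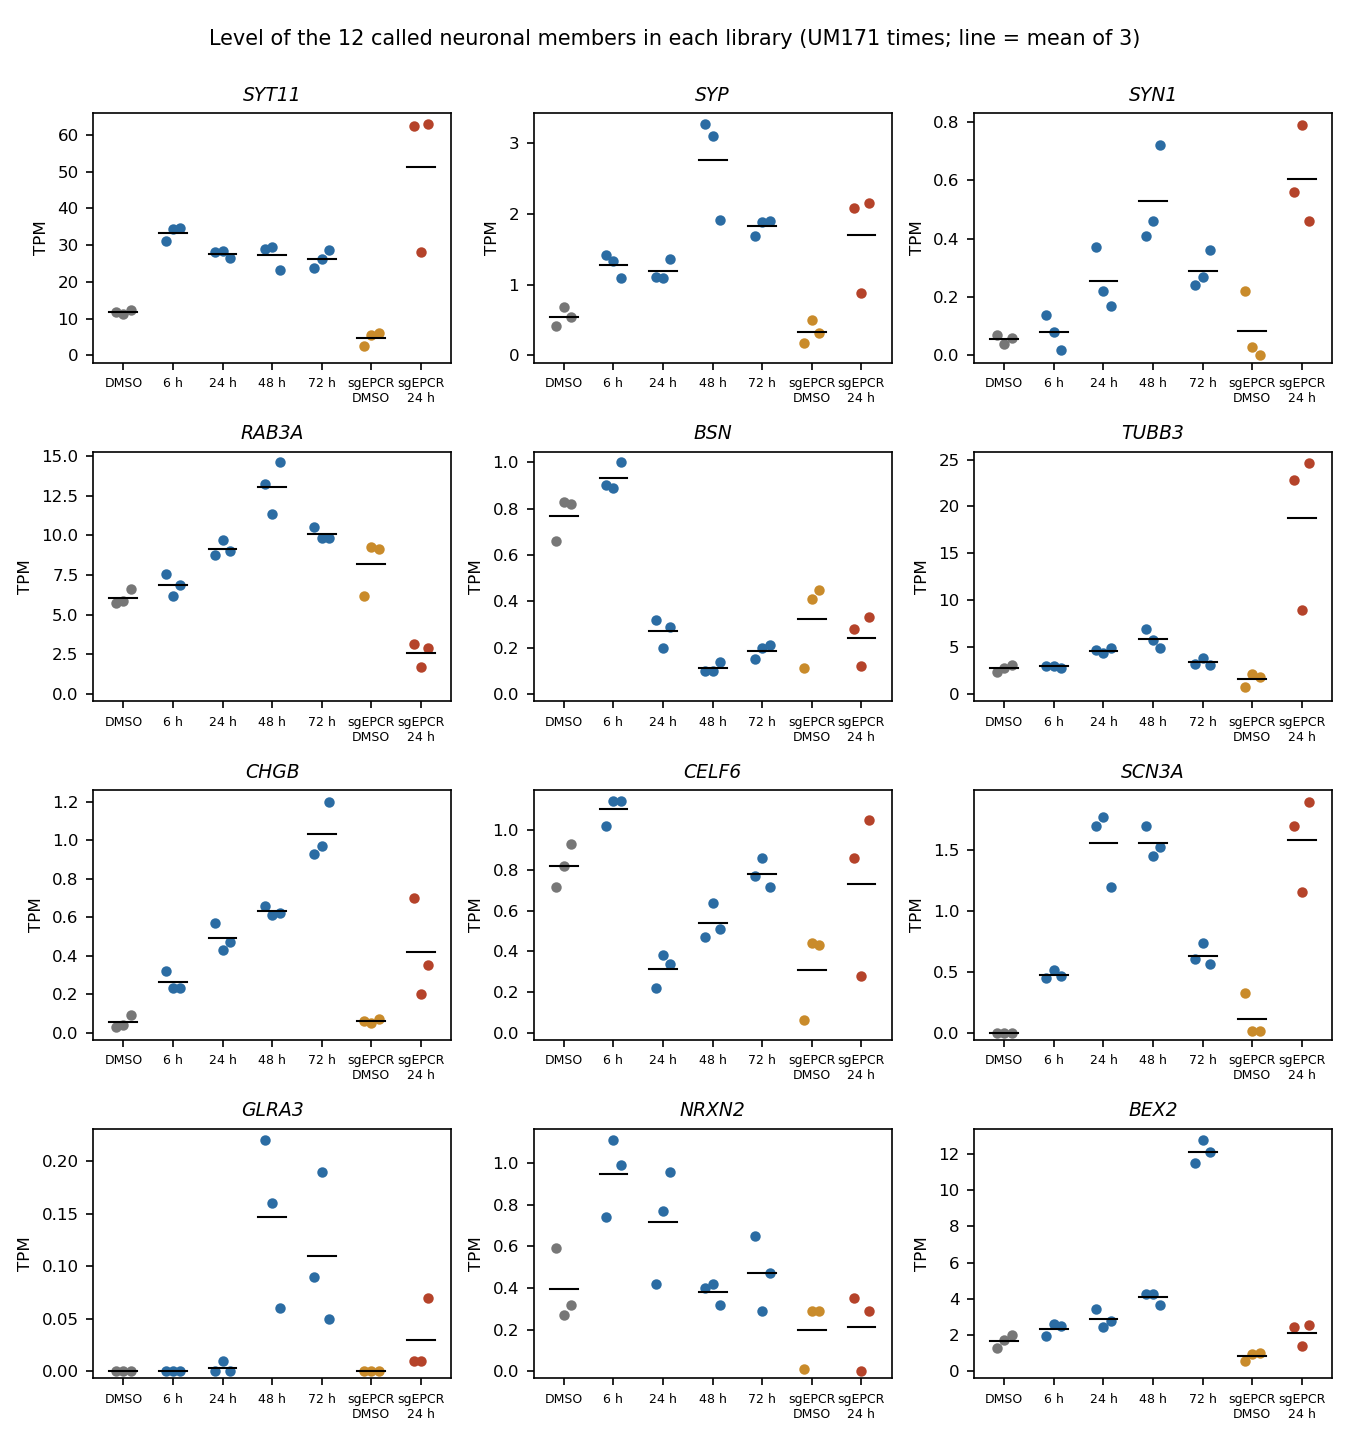
Level in TPM of the 12 called members (panels, each with its own linear axis from 0) in every library, with UM171 times in control cells in blue, DMSO in grey, sgEPCR cells in DMSO in ochre and in UM171 in red, and a line at the mean of 3 libraries. SYT11 was high from 6 h, SYP, SYN1, RAB3A and TUBB3 had their highest control mean at 48 h, BEX2 and CHGB at 72 h, and BSN was lower from 24 h.

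Consecutive times were compared to see when members moved. From 6 to 24 h, SCN3A was called higher (log2 fold change 1.99), and BSN (-2.08), CELF6 (-1.69), MAPK8IP2 (-1.49) and CACNA1B (-1.15) lower, against a background of 3.61% higher and 6.43% lower. From 24 to 48 h, SYP (1.38) and GLRA3 (5.52, a fitted value that depends on the prior count) were higher and 0 members lower, against 2.51% and 0.338%. The GLRA3 call was lost in 8 of 15 fits without a library. From 48 to 72 h, BEX2 (1.54), MAPK8IP2 (1.66) and CACNA1B (1.04) were called higher and SCN3A lower (-1.33), against 2.59% and 0.76%. MAPK8IP2 thus fell to 19, 27 and 13 counts at 24 h from 50, 44 and 49 at 6 h, and rose from 17, 17 and 12 at 48 h to 43, 53 and 59 at 72 h. CACNA1B was likewise lower at 24 h than at 6 h and higher at 72 h than at 48 h. TUBB3 was close to a call from 48 to 72 h (-0.95) and was called without UM171 48 h replicate 2, at -1.01, and without replicate 3, just past 2-fold.

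In sgEPCR cells the same question was asked at 24 h, in a fit of 12 libraries with the DMSO and UM171 24 h libraries of the time course as controls. The DMSO libraries of control cells were labelled 72 h and those of sgEPCR cells 24 h, so time and editing cannot be told apart between them. The difference of the responses carries the same mismatch. Of 18 members tested, UM171 raised 4 in sgEPCR cells (SCN3A, SYP, SYT11 and TUBB3) and lowered RAB3A, against a background of 6.99% higher and 3.33% lower over 15901 tested genes. Without the 2 libraries of high mitochondrial share, 8 members were called, with SYN1, SYT1 and VGF added to these 5. VGF was not among the 18 tested with all 12 libraries, so the tested set differed. It had 1, 0 and 0 counts in sgEPCR DMSO and 13, 8 and 14 in sgEPCR UM171. A member that passes the filter only through a group where it is high has to differ. The share of all genes called in this setting is not given. With total count scaling the split over all genes was 978 higher and 146 lower in place of 1112 and 530.

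TUBB3 was at 0.70, 2.14 and 1.86 TPM in sgEPCR DMSO and 22.8, 8.93 and 24.6 TPM in sgEPCR UM171. Each UM171 library was above every other library of the series. Its log2 fold change in sgEPCR cells was 3.29 (SE 0.16, edgeR adjusted p = 8.0e-08), and it exceeded the control response by 2.46 on the log2 scale (SE 0.22, edgeR adjusted p = 1.0e-05). Without the libraries rich in mitochondrial counts, these values were 3.35 and 2.54.

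SYT11 showed the same order. It was at 2.47, 5.54 and 6.10 TPM in sgEPCR DMSO, below all control DMSO libraries, and at 62.4, 28.2 and 62.9 TPM in sgEPCR UM171. The lowest library of each sgEPCR group was the one rich in mitochondrial counts, and in UM171 this library lay within the control range at 24 h. The response was 3.19 on the log2 scale (SE 0.091, edgeR adjusted p = 3.1e-09) and exceeded that of control cells by 2.00 (SE 0.12, edgeR adjusted p = 7.5e-07), or 2.04 without the 2 libraries. In DMSO its log2 fold change against control cells was -0.95, just under 2-fold, and it was called without sgEPCR DMSO replicate 3, at -1.01.

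RAB3A fell in sgEPCR cells, whereas its change of 0.63 in control cells at 24 h was not called (edgeR adjusted p = 0.00096). It was at 6.17, 9.27 and 9.15 TPM in sgEPCR DMSO and at 3.17, 1.68 and 2.87 TPM in sgEPCR UM171, so that the latter libraries were the lowest of the series. Its response was -2.10 on the log2 scale in sgEPCR cells (SE 0.15, edgeR adjusted p = 9.0e-07), and the difference from the control response was -2.73 (SE 0.20, edgeR adjusted p = 2.9e-06), or -2.57 without the 2 libraries.

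SCN3A had 7, 2 and 3 counts in sgEPCR DMSO, where control cells had 0, and 206, 140 and 254 counts in sgEPCR UM171, for a ratio of 48.9 within sgEPCR cells (interval 27.8 to 95.1). The 3 UM171 libraries were far above the 3 in DMSO. Its call (edgeR adjusted p = 1.3e-05) was lost without sgEPCR DMSO replicate 2 or 3, where the log2 fold change was 4.95 and 4.90. With all libraries this value was 5.35, and without the 2 rich in mitochondrial counts it was 6.32 (edgeR adjusted p = 5.7e-10). The difference from the control response was not called, and that fitted value depends on the prior count because control DMSO was at 0. SYP was at 0.18, 0.50 and 0.32 TPM in sgEPCR DMSO and at 2.09, 0.88 and 2.15 TPM in sgEPCR UM171, without overlap. Its log2 fold change was 2.08 (SE 0.20, edgeR adjusted p = 1.1e-05), and this call was lost without sgEPCR DMSO replicate 3, at 1.91. Without the 2 libraries rich in mitochondrial counts, SYP was at 2.19 (edgeR adjusted p = 7.6e-07). SYT1 had 0, 1 and 0 counts in sgEPCR DMSO and 36, 11 and 24 in UM171, for a ratio of 69.4 with an interval of 12.1 to 2779.

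Between the genotypes in DMSO, 0 of 18 tested members were called higher or lower by edgeR, against a background of 1.43% and 1.41%. At an adjusted p under 0.05 alone there were 7, for which no share of all genes is given, and 1 (SYT11) was called under upper quartile scaling. Between the genotypes in UM171, TUBB3 (log2 fold change 2.12) and SYT11 (1.05) were higher and RAB3A (-1.74) lower in sgEPCR cells, against 2.67% and 1.79%. Without the 2 libraries rich in mitochondrial counts, these values were 2.27, 1.12 and -1.77. For the difference of the responses, the same 3 members were called, against 3.6% higher and 4.17% lower. With total count scaling only RAB3A kept this call (-2.55), as TUBB3 (2.61) and SYT11 (2.15) missed the p limit, and with limma on log2(TPM + 1) 0 of the 3 did, at the same signs. With a replicate block 0 of the 3 were called either for the difference or between the genotypes in UM171. Total count scaling also turned the split over all genes from 573 higher and 663 lower to 269 and 155. BSN and CELF6, which fell at 24 h in control cells, had differences of 1.42 and 2.29 that were not called (edgeR adjusted p = 0.0014 and 0.0030) but were called without the 2 libraries rich in mitochondrial counts, at 1.38 and 2.25, which made 5 members in all. These comparisons share their DMSO and UM171 24 h libraries with the time course.

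**Figure D4:**
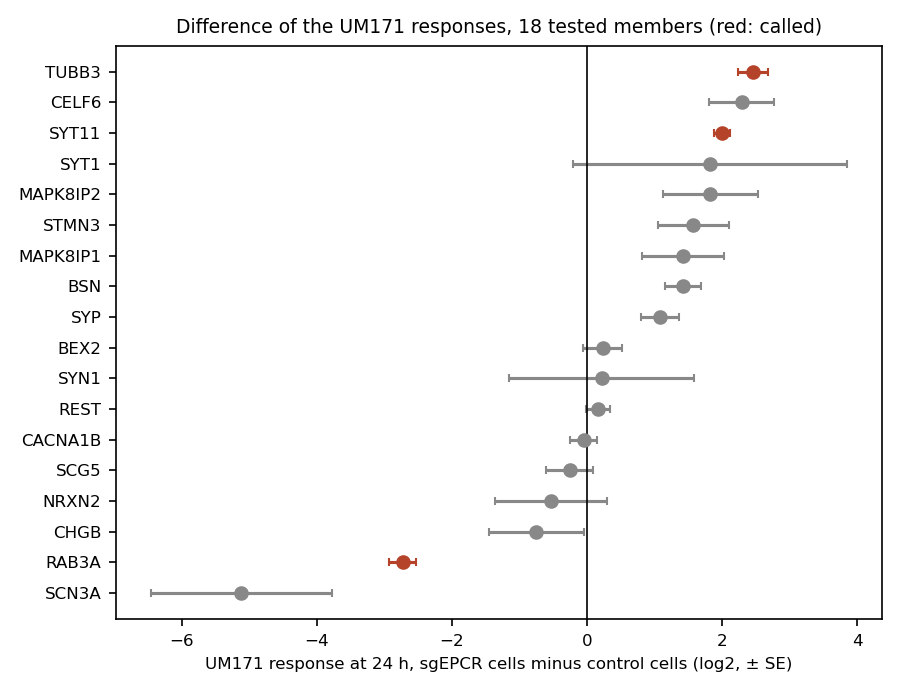
Difference between the UM171 response at 24 h in sgEPCR and in control cells (log2 scale, sgEPCR minus control) for the 18 tested members, with bars of 1 SE and called members in red. TUBB3 and SYT11 lie at 2.46 and 2.00 and RAB3A at -2.73, and the wide bar of SCN3A goes with 0 counts in control DMSO.

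All 22 REST corepressor genes were tested, and 18, 19, 18 and 18 of them had an edgeR adjusted p under 0.05 at 6, 24, 48 and 72 h. No share of all tested genes at this adjusted p alone is given in this report, so counts at that limit stand without a background. Of the 22, 1, 1, 1 and 2 also passed the limits of a call, all higher, against 6.78%, 9.03%, 11.7% and 15% of all tested genes. RCOR1, the main CoREST subunit, was at 46.1 ± 2.43 TPM in DMSO and 34.5 ± 2.28 TPM at 72 h (SD, n = 3), and KDM1A was at 73.1 ± 1.68 and 77.7 ± 1.71 TPM. Neither was called against DMSO at any time (log2 fold changes from -0.53 to -0.21 for RCOR1 and from -0.10 to 0.36 for KDM1A). PHF21A, a histone reader of the LSD1 complex, rose from 10.2 ± 0.202 TPM in DMSO to 48.8 ± 0.717 TPM at 72 h (log2 fold change 2.41, SE 0.11, edgeR adjusted p = 1.5e-12). RCOR2, a further CoREST paralog, was called at 6 h (1.51) and 72 h (1.58) from a low level of 0.34 ± 0.151 TPM. SIN3A, the scaffold of the SIN3 arm, was at 16.7 ± 0.536 TPM in DMSO, 10.1 ± 0.32 TPM at 6 h and 29.3 ± 2.24 TPM at 24 h, and was called from 6 to 24 h (1.58) but not against DMSO. Over the 22 genes the median log2 fold change was between -0.14 and 0.18 at the 4 times. In sgEPCR cells 0 were called in UM171 against DMSO, with 8 at an adjusted p under 0.05, and for the difference of the responses KDM1A was called lower (-1.23).

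Further neuronal lists were examined beside the members. Of 20 other genes reported to carry an RE1 site, 13 never exceeded 3 counts and 3 were tested. Of these, 0 were called higher and CDK5R1, an activator of a neuronal kinase, was called lower at 72 h (log2 fold change -1.69), while GAD1 (1.24), an enzyme of GABA synthesis, was called higher by UM171 in sgEPCR cells. Of 20 neural lineage factors and glial markers, 12 never exceeded 3 counts, among them SOX2, AQP4 and RBFOX3, a marker of mature neurons. Their summed level was 130 to 141 TPM in DMSO and 104 to 111 TPM at 72 h, and at 24 h it was 51 to 56.9 TPM. Nearly all of it came from OLIG1 and the glial marker MBP, so the sum does not describe the list as a set. In DMSO OLIG1 was at 66.1, 66.8 and 76.7 TPM and MBP at 63.8, 62.5 and 63.6 TPM. At 24 h they were at 8.19, 10.9 and 9.07 TPM and at 42.1, 45.3 and 43.0 TPM. OLIG1, a factor of oligodendrocyte lineage, was called lower at 6, 24 and 48 h (log2 fold changes of -1.11, -2.94 and -1.97), and NEUROD1, a neuronal differentiation factor, was called higher at 6 h (3.43). At 72 h 0 of the 6 tested genes were called by edgeR, with 3 at an adjusted p under 0.05.

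Markers of other blood cells also moved, and their part in the results on the neuronal genes was not tested. Over all tested genes, 15% were called higher and 5.8% lower at 72 h. Of 16 myeloid markers, 14 were tested, with 4 called higher at 72 h (ITGAM at a log2 fold change of 3.02) and 3 lower (CD34 at -2.29). The summed level of the 16 was 1589 to 1685 TPM in DMSO and 2435 to 2632 TPM at 72 h. Much of this sum was LYZ, at 650, 766 and 734 TPM in DMSO and at 1555, 1711 and 1814 TPM at 72 h. The sum thus does not describe the markers as a set. SPI1, called lower, went from 426, 403 and 421 TPM in DMSO to 217, 226 and 204 TPM at 72 h. Of 11 lymphoid markers, 6 were tested and 5 called higher at 72 h (PAX5, CD3D, NCAM1, TRAC and CD79A), with sums of 49.5 to 52.2 TPM in DMSO and 136 to 141 TPM at 72 h. The B cell genes PAX5 and CD79A were among these, PAX5 from 0 counts in each DMSO library to 32, 24 and 26 at 72 h, and MS4A1, another B cell gene, was at 0 in every library. Of 8 erythroid markers, 7 never exceeded 3 counts, with HBA2, HBG1 and ALAS2 at 0, and only EPOR was tested and called higher (2.42), so that the sum was 1.76 to 2.53 TPM in DMSO and 9.91 to 11.8 TPM at 72 h.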

How the data were processed

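For each of 21 libraries the authors deposited RSEM expected counts per gene, not normalized, in which reads shared between genes are divided. The authors also deposited TPM, scaled by effective length to the same total in each library. The submitters' processing notes name CASAVA 1.8.2, Trimmomatic 0.35, STAR 2.5.1b, RSEM 1.2.28 and GRCh38. The methods describe kallisto and sleuth for the paper's statistics. The labels call the libraries stranded, and the strand setting of the counting is not given in the sources used here. Entries whose identifiers differed only after the dot were summed, and 57392 of 58174 identifiers had a symbol.

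Expected counts were rounded and tested in edgeR 4.0.16 (R 4.3.3) by the quasi-likelihood test after filterByExpr and TMM scaling, without a replicate term. The time course fit held 15 libraries and 16575 genes, the sgEPCR fit 12 libraries and 15901 genes. P-values were adjusted over all tested genes (Benjamini-Hochberg). Standard errors were obtained from the F statistic, as the size of the log2 fold change over its root. On simulated data, 199 of 200 genes changed 4-fold were recovered with 0 false calls at 72 h (16211 genes). For the difference of the responses it was 196 of 200 with 0 false calls (15542 genes). The simulated spread between libraries was the same for all genes. It was above the estimate for the time course (coefficient of variation 0.0564) but below that for the sgEPCR fit (0.187). Only genes well above the count floor were changed, and no simulated library was rich in mitochondrial counts. The recovery thus does not extend to low members or to the spread of the sgEPCR libraries.

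Members and gene lists were chosen with earlier results of these data known. Fitted values are given for REST and for each member called against DMSO in the time course, though not for every contrast. The other members are given by counts or ranges. PROCR, RCOR1, KDM1A and at most 6 genes per list called at 72 h were named besides. GAD1, SIN3A, OLIG1, MBP, NEUROD1, SPI1, CD33, KIT and CD14 were named after their values were seen. Some items are not reported here. Ratios of low counts carry exact binomial intervals on summed counts, scaled by library totals. Motifs were searched in RefSeq promoters and in hg38, with which all 35116 promoter entries were identical. The alternatives comprised DESeq2 1.42.0, then limma 3.58.1 fitted to log2(TPM + 1) and log2(TPM + 0.1), total count and upper quartile scaling, no filter, at least 10 counts in every library, 1 fit of 21 libraries, a replicate block, an adjusted p under 0.05 alone, leaving out each library, and leaving out the 2 libraries with over 20% mitochondrial counts. Tables and figures used Python 3.11.15 and matplotlib 3.10.9.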

Additional observations from a re-analysis of the deposited data

Results flagged for a closer look

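For 3 members the response to UM171 at 24 h differed between sgEPCR and control cells by a test of the difference itself, edgeR's interaction term with Benjamini-Hochberg adjustment. The control response was taken against DMSO labelled 72 h and the sgEPCR response against DMSO labelled 24 h. Editing and time in DMSO thus cannot be told apart in this difference. The source labels also name no guide for the control cells. TUBB3 responded more strongly in sgEPCR cells by 2.46 on the log2 scale, with 3 of 3 sgEPCR UM171 libraries above every other library. SYT11 responded more strongly by 2.00, and 2 of 3 sgEPCR UM171 libraries were above every other library. RAB3A fell in sgEPCR cells, with a difference of -2.73 and 3 of 3 sgEPCR UM171 libraries below every other library. These calls did not hold in every alternative. With a replicate block or limma on log2(TPM + 1) 0 of the 3 were called, and with total count scaling 1, RAB3A, was.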

How the results depend on the processing

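For 13 members, REST and those called against DMSO in the time course, 3192 log2 fold changes were recomputed. Of these, 3042 were classed as unchanged, 130 no longer passed, 20 newly passed and 0 changed direction among called values. Values not called in the main fit were classed as unchanged also where their sign turned. SYN1 between genotypes in DMSO, for example, went from 0.72 to -1.16 without the 2 libraries of high mitochondrial share. The causes were not tested. Counts of called members were 4, 5, 10 and 7 against DMSO at 6, 24, 48 and 72 h, 5, 2 and 4 for the steps 6 to 24, 24 to 48 and 48 to 72 h, 5 for UM171 in sgEPCR cells, 0 between genotypes in DMSO, and 3 each between genotypes in UM171 and for the difference of the responses. Corepressors called at 1 or more times against DMSO were 2. With an adjusted p under 0.05 alone, members numbered 8 at 6 h, 14 at 24 h, 13 at 72 h, then 14, 8 and 12 for the steps, 12 in sgEPCR cells, 7 and 9 between genotypes, 8 for the difference, and corepressors 22. With limma on log2(TPM + 1) the counts were 1, 2, 3 and 2 by time, 0, 0 and 1 for the steps, 1 in sgEPCR cells, 0 between genotypes in UM171, 0 for the difference and 1 corepressor. With log2(TPM + 0.1) they were 2 at 6 h, 0 from 24 to 48 h, 2 from 48 to 72 h, 1 in sgEPCR cells, and 0 between genotypes in UM171 and for the difference. A single fit of 21 libraries gave 2 at 6 h, 3, 1 and 2 for the steps and 8 in sgEPCR cells. Without a filter 8 were called at 24 h, and with at least 10 counts in every library 4 at 72 h and 1 from 24 to 48 h. Total count scaling gave 1 from 24 to 48 h, 1 between genotypes in UM171 and 1 for the difference, upper quartile scaling 1 between genotypes in DMSO, and DESeq2 5 for the difference. Without the 2 libraries of high mitochondrial share, 8 were called in sgEPCR cells and 5 for the difference. The 8 included VGF, which was not tested with all 12 libraries.

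Leaving out 1 library at a time gave 2 to 3, 4 to 6, 8 to 10 and 6 to 7 members by time, 4 to 5, 1 to 2 and 3 to 5 for the steps, 3 to 6 in sgEPCR cells, 0 to 1 and 3 to 3 between genotypes, 3 to 3 for the difference, and 2 to 3 corepressors. With a replicate block the counts were 2 at 6 h, 1 in sgEPCR cells, and 0 between genotypes in UM171 and for the difference. Deviations of same-numbered libraries correlated between -0.06 and 0.06 in the time course and at -0.61, -0.60 and 0.45 between the sgEPCR groups. The sources used here do not tie a number to a clone or guide, and the 2 libraries of high mitochondrial share carry different numbers, so whether the numbers pair the sgEPCR libraries cannot be told from this check.

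Total count scaling moved the median of all genes by 0.18 at 6 h, -0.15 from 6 to 24 h, 0.17 in sgEPCR cells, -0.25 and -0.11 between genotypes and 0.14 for the difference. It turned the split of calls over all genes from 598 higher and 1066 lower to 414 and 1455 from 6 to 24 h, and from 228 and 224 to 64 and 143 between genotypes in DMSO, and upper quartile scaling gave 735 and 493 for the difference. Depth limits the members near 3 counts, for which a change under several-fold was not detectable.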

Other observations

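SCN3A and GLRA3, both at 0 counts in the DMSO libraries of control cells, did not appear at the same time. SCN3A had at least 35 counts in each library at 6 h, whereas GLRA3 had 0 there and at most 1 at 24 h. SYN1 and CHGA carry the same 17 letters of the RE1 element near their starts, and in sgEPCR UM171 SYN1 had 29, 25 and 21 counts, while CHGA had 1 count in 1 of the 21 libraries.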
